A study of Bos taurus with 40 samples.

Results

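FAM200A and FAM200B are a pair of single genes that carry the remains of a DNA transposase, and they were followed here through every RNA library of a study of single bovine oocytes. Their rows are FAM200A and LOC100849050, which RefSeq (ARS-UCD2.0) calls FAM200B. They make up 2 of the 59051 rows in the 4 count tables. They were chosen by their measured levels in single libraries of granulosa cells and ooplasm, which differed between libraries and fates. Those differences are therefore given as description, without a test. Granulosa cells of individual Bos taurus follicles were collected, and the cumulus-oocyte complexes were matured in vitro before an ooplasm biopsy, a sample of the egg's cytoplasm, was taken. The groups are oocytes that reached the blastocyst stage (BL) and oocytes that arrested at cleavage (CL), with 4 libraries of each fate for ooplasm biopsies, cumulus cells and granulosa cells. A further matched set holds 4 ooplasm biopsies and 4 whole oocytes that carry the same numbers and no fate. The labels name no animal, breed, age or agent for any of these groups, and the genotype given for all of them is diploid.

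Domesticated transposase genes descend from mobile DNA elements that lost the ability to move and were kept by the host as ordinary genes. FAM200 proteins stem from the hAT superfamily of elements, as do the ZBED proteins, and their cellular roles are poorly known. Oocytes store RNA during growth and draw on that store through maturation and the first cleavages, while granulosa cells line the follicle wall and cumulus cells surround the egg.

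Libraries held 13442089 to 20495725 counts in matched biopsies and 17221668 to 23790073 in whole oocytes. The fate biopsies held 16804281 to 22557007, cumulus cells 7964591 to 9592127 and granulosa cells 9875705 to 17668550. Among the granulosa libraries B20 and D27 of the blastocyst group stood apart, with the lowest totals (9875705 and 10821126 counts) and the most rows at 5 or more counts (28629 and 28473, against 18065 to 26709 in the other granulosa libraries). H1FOO, the oocyte linker histone, was the only 1 of 44 marker symbols that named a row. It stood at 500 to 1430 CPM in matched biopsies, 456 to 991 CPM in whole oocytes and 720 to 1530 CPM in fate biopsies, against 0 to 0.108 CPM in cumulus cells and 0.302 to 22.3 CPM in granulosa cells. CPM (counts per 1e+06 counts) are scaled by TMM within each count table, so a level set beside one of another table rests on separate scalings. Markers of granulosa and cumulus cells had no row under their symbols, and those labels were not checked here. Rows named by ENSBTAG identifiers were not matched to symbols, so the marker genes may be present under them. In these bulk samples fewer cells of a type and less RNA per cell cannot be told apart.

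FAM200B stood at either a low or a high level in the egg, with no library between. In biopsies of the blastocyst group it had 12.6 CPM in B20, 7.68 CPM in B21, 18.6 CPM in D24 and 19.2 CPM in D27. In biopsies of the cleavage group it had 13.4 CPM in B14, 126 CPM in B23, 286.6 CPM in D10 and 21.4 CPM in D29. B23 and D10 thus stood far above the other 6 biopsies, while B14 and D29 lay with or just above the blastocyst group. The second highest biopsy was 5.88 times the third highest. The fitted log2 fold change of the blastocyst group over the cleavage group was -2.95 (SE 0.78, n = 4 each), and -1.87 (SE 0.67) without D10.

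The matched set, which carries no fate, showed the same pair of levels. Its biopsies had 22.8 CPM for number 2, 28.6 CPM for number 3, 131 CPM for number 6 and 165 CPM for number 16. The whole oocytes had 17.3, 24.5, 299 and 179.8 CPM for numbers 2, 3, 6 and 16. Numbers 6 and 16 were thus high in the biopsy and in the oocyte, and numbers 2 and 3 were low in both. The second highest library was 4.57 times the third in these biopsies and 7.35 times the third in the oocytes. Over the 12 biopsies of both sets, 4 stood at 126 CPM or more and 8 at 28.6 CPM or less.

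**Figure D1:**
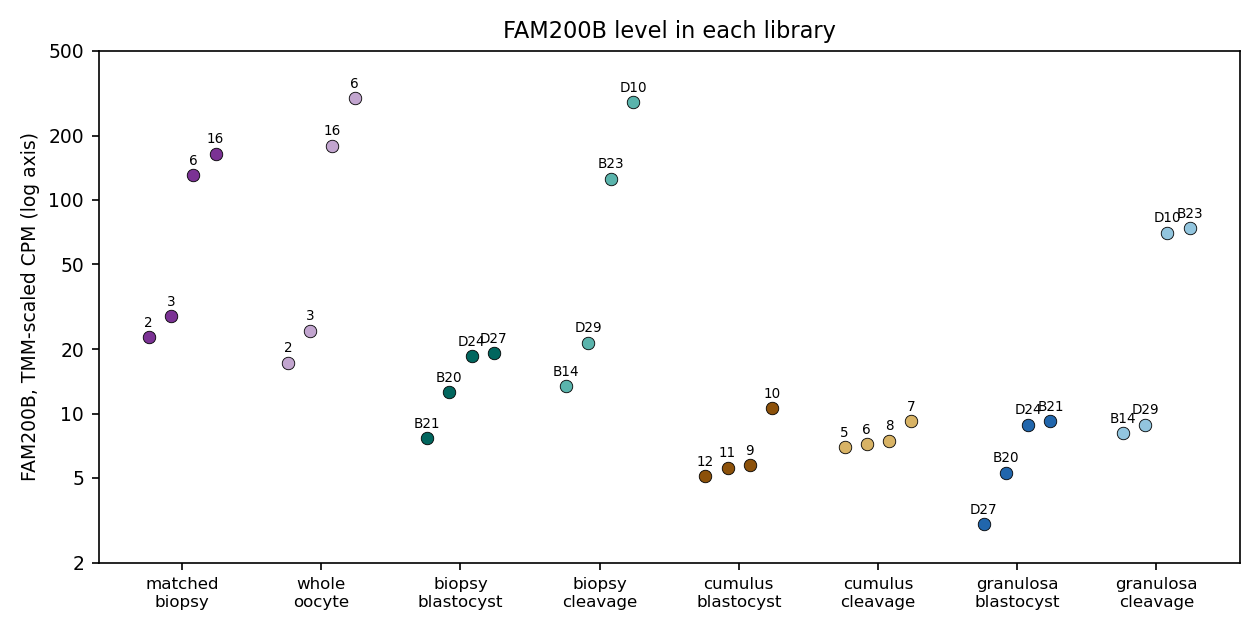
FAM200B level in each of the 32 RNA libraries, as TMM-scaled CPM on a log axis, by group; each point is 1 library with its label. Biopsies 6 and 16, oocytes 6 and 16, biopsies B23 and D10 and granulosa libraries B23 and D10 lie at 70.1 CPM or more, and every other library at 28.6 CPM or less.

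Granulosa cells under the same oocyte labels carried the split of the biopsies. In granulosa cells of the blastocyst group FAM200B had 5.28 CPM in B20, 9.19 CPM in B21, 8.85 CPM in D24 and 3.02 CPM in D27. In granulosa cells of the cleavage group it had 8.09 CPM in B14, 73.9 CPM in B23, 70.1 CPM in D10 and 8.85 CPM in D29. B23 and D10 were again the high libraries, with 812 and 928 counts, and the second highest library was 7.63 times the third highest. The other 6 granulosa libraries averaged 7.21 ± 2.50 CPM (SD, n = 6), and the other 6 biopsies 15.5 ± 5.15 CPM (SD, n = 6). The fitted log2 fold change of the blastocyst group over the cleavage group was -2.61 in granulosa cells (SE 0.80, n = 4 each). It was -2.05 (SE 0.95) without B20 and D27 of the blastocyst group. The fate difference of granulosa cells less that of biopsies was 0.20 on the log2 scale (SE 1.14).

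Among the 6 labels at the low level the order in biopsies was not that in granulosa cells. B21 was the lowest biopsy (7.68 CPM) and the highest of these 6 granulosa libraries (9.19 CPM), and D27 was the lowest granulosa library (3.02 CPM) at 19.2 CPM in its biopsy. The ratio of the biopsy to its own granulosa cells ran between 0.836 for B21 and 6.35 for D27. It was 1.70 for B23 and 4.09 for D10.

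**Figure D2:**
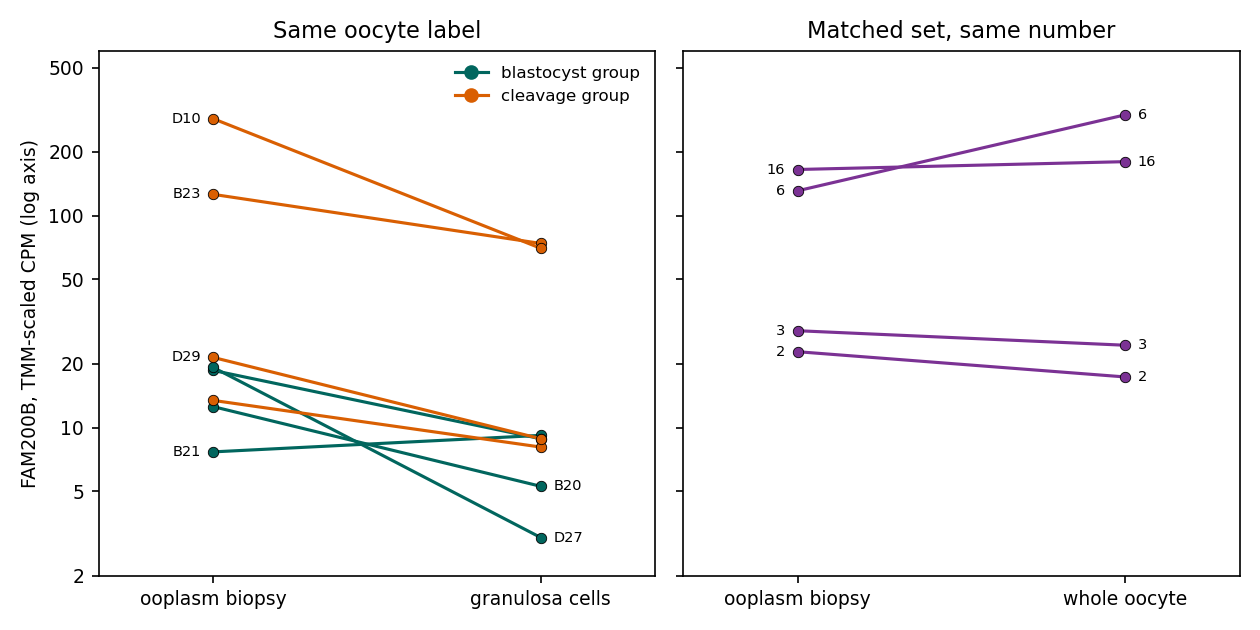
FAM200B level on a log axis in TMM-scaled CPM; lines join the ooplasm biopsy and the granulosa cells of the same oocyte label (left, 8 labels, coloured by fate) or the biopsy and the whole oocyte of the same number (right, 4 numbers). B23 and D10 on the left and 6 and 16 on the right lie above all other lines at both ends, and only some labels are printed where points crowd.

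B23 and D10 differed in some measured features. In granulosa cells they had 22039 and 18065 rows at 5 or more counts, and in biopsies 25274 and 19993, the most and the fewest of the 8 biopsies. H1FOO stood at 6.74 CPM in granulosa library B23 and 0.302 CPM in D10, against 22.3 CPM in B20, where FAM200B had 5.28 CPM. Over the other granulosa libraries H1FOO stood at 0.46 to 14.2 CPM, and its part in the FAM200B levels was not tested. The labels fall under 2 letters, B and D, and each letter holds 1 of the high oocytes. In granulosa cells TMM scaling raised B23 and D10 by more than the other libraries. With library totals FAM200B stood at 55.99 CPM in granulosa library B23 and 54.25 CPM in D10. The second highest library was then 5.69 times the third in granulosa cells and 6.67 times the third in biopsies. The part of the scaling was not tested.

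Of the 17265 rows that passed the filter on low counts in both the biopsy and the granulosa table, 754 had their highest 2 libraries under the same 2 oocyte labels in both (4.37%). FAM200B was one of them. A stricter pattern, set after these values were seen, asked also that the second highest library be at least 3 times the third in both tables. It held for FAM200B and for no other row (0.00579%). The next row by the smaller of its 2 ratios, LOC787803, reached 2.81, just under the cut, and was high under the same labels. It had 86.6 CPM in B23 and 103 CPM in D10 in granulosa cells, and 11 and 12.9 CPM in their biopsies. The split of B23 and D10 from the other labels was therefore not seen in FAM200B alone. In the matched set 137 of 18540 rows (0.739%) had such a gap under the same 2 numbers in biopsies and oocytes, FAM200B among them. The gene was taken for this pattern, so its place at the end of the distribution is no independent support for it.

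**Figure D3:**
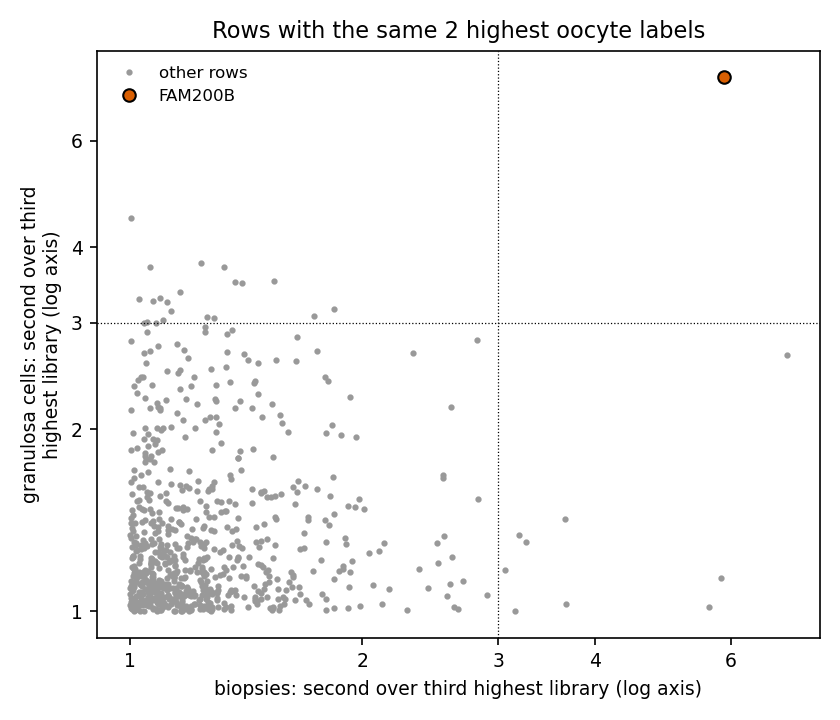
Ratio of the second to the third highest library in biopsies (x, log axis) and in granulosa cells (y, log axis) for the 754 rows whose highest 2 libraries carry the same 2 oocyte labels in both tables; each point is 1 row and dotted lines mark a ratio of 3. FAM200B, at 5.88 and 7.63, is the only point beyond both lines.

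The spread of FAM200B between libraries of a group followed these levels. On the log2(CPM + 1) scale its SD was 1.44 in matched biopsies, 2.01 in whole oocytes, 2.04 in cleavage-group biopsies and 1.70 in cleavage-group granulosa cells. Those SDs reached or passed 99.3%, 99.8%, 99.7% and 99.1% of rows within 2-fold of its mean level in the same group. In blastocyst-group biopsies the SD was 0.57, at percentile 50.9 of such rows, and in blastocyst-group granulosa cells 0.63, at percentile 30.3. In cumulus cells the SD was 0.43 in the blastocyst group, at percentile 94.0, and 0.16 in the cleavage group, at percentile 36.6.

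Cumulus cells held FAM200B between 5.10 and 10.6 CPM. The blastocyst group had 5.71, 10.6, 5.56 and 5.10 CPM in libraries 9, 10, 11 and 12, and the cleavage group 6.96, 7.16, 9.22 and 7.46 CPM in libraries 5, 6, 7 and 8. The groups overlapped, no library stood at the level of the high granulosa libraries, and the fates did not differ past the threshold (log2 fold change -0.19, SE 0.23, edgeR quasi-likelihood adjusted p = 0.707). The cumulus columns carry no oocyte label, so they cannot be set beside the granulosa cells or biopsies of the same follicle. In this comparison 0 of 15410 rows passed (0.0%), with 2249 at an unadjusted p under 0.05 and 159 called by the DESeq2 Wald test.

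Matched biopsies and whole oocytes of the same number did not differ past the threshold in FAM200B (log2 fold change -0.58, SE 0.83, edgeR quasi-likelihood adjusted p = 0.990). The level in the biopsy was 1.32, 1.17, 0.438 and 0.918 times that in the oocyte for numbers 2, 3, 6 and 16, so it was higher in 2 of the 4 and lower in the other 2. With the number as a block the log2 fold change was -0.17 (SE 0.30), and without single libraries it ran between -1.10 (without biopsy 16) and 0.23 (without oocyte 6). In this comparison 0 of 18540 rows passed (0.0%), with 1028 at an unadjusted p under 0.05 and 190 called by the DESeq2 Wald test.

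FAM200A showed another pattern, present in all granulosa and cumulus libraries and detected in only some ooplasm biopsies. In biopsies of the blastocyst group it had 0 counts in B20, 110 in B21, 112 in D24 and 1 in D27. In biopsies of the cleavage group it had 0 counts in B14, B23 and D29 and 1 in D10. B21 and D24 reached 5.78 and 6.16 CPM, and the fates overlapped, since B20 and D27 lay at or near 0. The summed counts were 223 against 1, and nearly all of the 223 came from B21 and D24. The row did not pass the filter on low counts in the fate comparison of biopsies alone and has no fitted value there.

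In the matched set FAM200A was found in 1 of 4 biopsies and in most oocytes. The biopsies of numbers 2, 3 and 6 had 0 counts, and number 16 had 108 counts (6.05 CPM). The oocytes had 2, 78, 43 and 33 counts for numbers 2, 3, 6 and 16, which is 0.0993, 4.35, 2.52 and 1.80 CPM. Numbers 3 and 6 therefore had the transcript in the whole oocyte and no count in the biopsy. The exact 95% interval around a count of 0 reached 3.69 counts in each of these biopsies. Over all 12 biopsies 3 had 5 or more counts. The matched groups did not differ past the threshold (log2 fold change -0.53, SE 1.66, edgeR quasi-likelihood adjusted p = 0.995), and with the number as a block the value was -4.83 (SE 2.40, edgeR adjusted p = 0.716). Single libraries set this value: it was -8.36 without biopsy 16 (edgeR adjusted p = 0.527) and -0.0020 without oocyte 3, and it passed in no fit that left out 1 library.

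**Figure D4:**
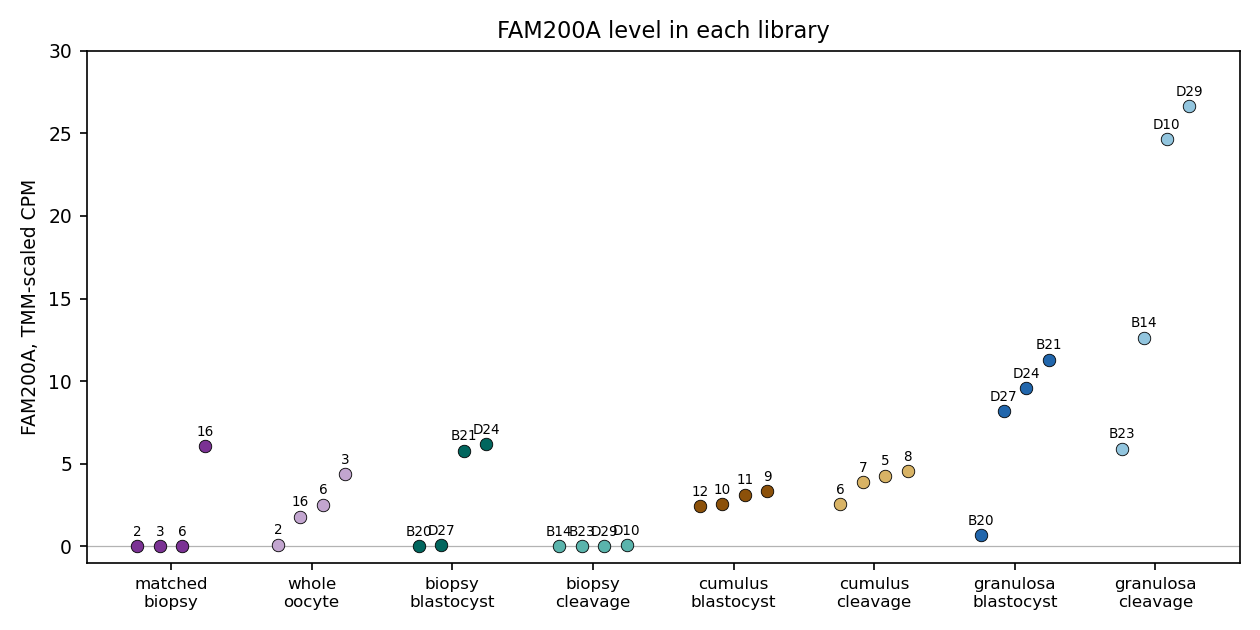
FAM200A level in each of the 32 RNA libraries, as TMM-scaled CPM on a linear axis, by group; each point is 1 library with its label. Of the 12 ooplasm biopsies 3 have 5 or more counts, and the granulosa libraries range between 0.66 and 26.6 CPM.

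Granulosa cells held the highest FAM200A levels and the widest range. The blastocyst group had 0.66 CPM in B20, 11.3 CPM in B21, 9.58 CPM in D24 and 8.18 CPM in D27, and the cleavage group 12.6 CPM in B14, 5.92 CPM in B23, 24.6 CPM in D10 and 26.6 CPM in D29. The groups overlapped, and the lowest library, B20, is one of those that stood apart. The fitted log2 fold change of the blastocyst group over the cleavage group was -1.23 (SE 0.78), and -0.71 (SE 0.64) without B20 and D27. In this comparison 21.3% of rows were called higher and 0.349% lower, and neither FAM200 gene was given a test. Without B20 and D27, 0 of 23577 rows were called with edgeR, with 4602 at an unadjusted p under 0.05. The oocytes with FAM200A in the biopsy, B21 and D24, lay in the middle of the granulosa range.

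Cumulus cells held FAM200A within a narrow range. The blastocyst group had 3.34, 2.53, 3.13 and 2.42 CPM in libraries 9, 10, 11 and 12, and the cleavage group 4.26, 2.54, 3.88 and 4.54 CPM in libraries 5, 6, 7 and 8. The ranges overlapped and the fates did not differ past the threshold (log2 fold change -0.41, SE 0.23, edgeR quasi-likelihood adjusted p = 0.429).

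Ordered by median level, FAM200B was highest in whole oocytes (102 CPM), then in matched biopsies, cleavage-group biopsies and cleavage-group granulosa cells, and lowest in blastocyst-group cumulus cells (5.64 CPM). Every neighbouring pair in that order overlapped. FAM200A was highest in cleavage-group granulosa cells (18.6 CPM) and lowest in cleavage-group and matched biopsies, both with a median of 0 CPM. Its neighbours in the order overlapped too, apart from whole oocytes and cleavage-group biopsies.

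Comparisons of the FAM200 pair with granulosa cells use the library levels by which the genes were chosen, and are given as description without a test. FAM200B averaged 63.2 ± 98.3 CPM in biopsies and 23.4 ± 30.1 CPM in granulosa cells (SD, n = 8 each), with overlapping ranges. The fitted log2 fold change was 1.90 (SE 0.58), 1.23 without biopsy D10 and 1.56 without granulosa libraries B20 and D27. FAM200A averaged 1.51 ± 2.76 CPM in biopsies and 12.4 ± 8.94 CPM in granulosa cells (SD, n = 8 each), with a fitted log2 fold change of -5.01 (SE 1.07), and -5.93 without biopsy D10. Over all rows of that comparison 58.2% were called, 30.9% higher and 27.3% lower. In cumulus against granulosa cells the fitted log2 fold change was -1.66 for FAM200A (SE 0.43) and -1.03 for FAM200B (SE 0.41), where 72.7% of rows were called, 46.5% lower and 26.3% higher.

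The genes were not chosen by the contrast of whole oocytes with cumulus cells. The spread of their levels in these libraries was known at the choice, so the p-values given here are no independent support. FAM200B was higher in whole oocytes than in cumulus cells, at 130 ± 135 CPM (SD, n = 4) against 7.22 ± 1.89 CPM (SD, n = 8), with a log2 fold change of 5.19 (SE 0.60, edgeR adjusted p = 1.11e-06). Without oocyte 6 the value was 4.35, and with scaling by library totals 4.09. In that comparison 89.6% of rows were called, 48.2% higher and 41.4% lower, and the oocytes and cumulus cells come from separately made tables. FAM200A had 2.19 ± 1.76 CPM in whole oocytes (SD, n = 4) and 3.33 ± 0.826 CPM in cumulus cells (SD, n = 8), and did not pass (log2 fold change 0.43, SE 0.53, edgeR adjusted p = 0.453). It passed without oocyte 2 (0.68, edgeR adjusted p = 0.0398), and its sign turned without oocyte 3 (-0.18) and with scaling by library totals (-0.80).

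Of 43 symbols of transposase-derived genes, 6 had a row under the symbol or a LOC identifier. They were the FAM200 pair, ZBED1 and ZBED6CL, which are hAT-derived, and TIGD4 and TIGD7, which derive from pogo-like elements. Rows named by ENSBTAG identifiers were not matched to symbols, so other genes of the list may be present under them. Of the 4 beside the FAM200 pair, 1 was called higher and 1 lower in biopsies against granulosa cells: TIGD4 rose (log2 fold change 2.20, edgeR adjusted p = 0.0186) and ZBED6CL fell (-1.49, edgeR adjusted p = 0.0196). The TIGD4 call was lost with the oocyte label as a block (1.69, edgeR adjusted p = 0.213), with library totals (1.57), and without biopsy D10 (1.68), biopsy D24 (1.61) or granulosa library D10 (1.84). The ZBED6CL call was lost with no filter (-1.37), and TIGD7 passed as lower under the block (-1.66, edgeR adjusted p = 0.0499) and without biopsy D24 (-2.17). The median over the 6 was -0.62, against -0.02 over all rows. In cumulus against granulosa cells 2 of these 4 were higher, ZBED6CL (1.87) and ZBED1 (1.86), and 2 lower, TIGD4 (-1.93) and TIGD7 (-1.69). The TIGD4 call there was lost without granulosa libraries B20 and D27 (-1.20). In whole oocytes against cumulus cells FAM200B, TIGD4 (4.63) and TIGD7 (1.09) were higher, and ZBED6CL (-4.27) and ZBED1 (-3.12) lower. The TIGD7 call was lost under every other scaling, filter and tool run (0.09 to 0.94), and without any single one of cumulus libraries 5, 7, 8, 10 and 12 or oocytes 2 and 3 (lowest 0.44, without oocyte 2). Over all rows 58.2% were called in biopsies against granulosa cells, 72.7% in cumulus against granulosa cells and 89.6% in whole oocytes against cumulus cells. None of the listed genes tested passed between fates in cumulus cells or between matched biopsies and oocytes, where 0.0% of all rows passed.

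**Figure D5:**
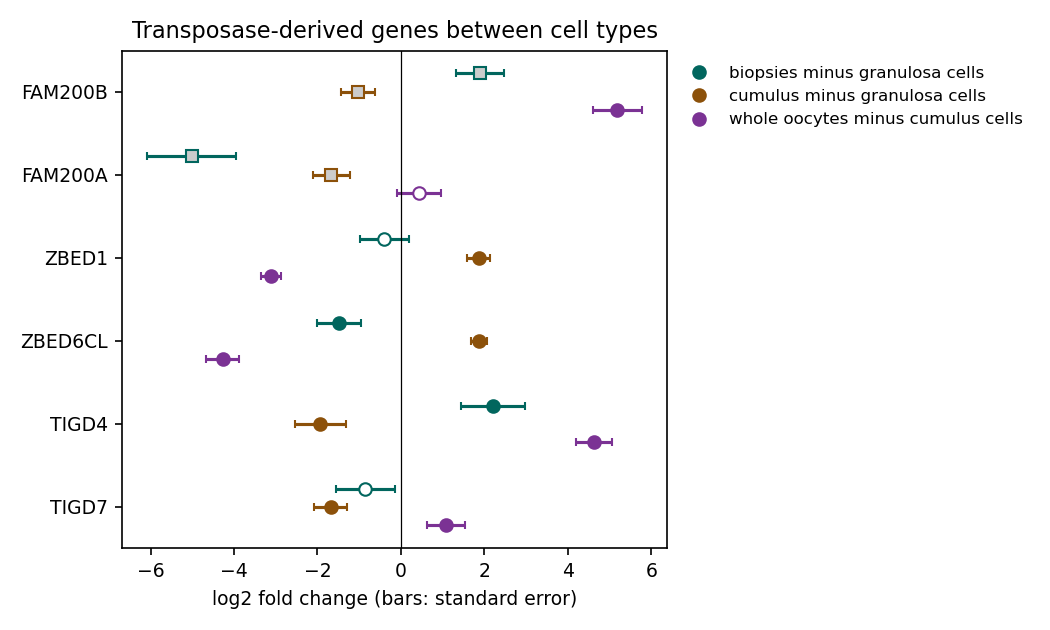
Log2 fold change (x axis) of the 6 transposase-derived genes with a row under the symbol or a LOC identifier. Comparisons are biopsies over granulosa cells, cumulus over granulosa cells and whole oocytes over cumulus cells. Bars are standard errors. Filled circles passed an adjusted p of 0.05 in the edgeR quasi-likelihood test, open circles did not, and grey-filled squares were not tested. FAM200B lies at 1.90, -1.03 and 5.19, and FAM200A at -5.01, -1.66 and 0.43.

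Across the 16 granulosa and biopsy libraries, the rows with a symbol most like FAM200B by Pearson correlation of log2(CPM + 1), centred within each source, were BORCS7 (0.754), C5H12orf45 (0.712), SNHG4 (0.684), MARS (0.669) and COX18 (0.665). Of any identifier, ENSBTAG00000004792 (0.845) and LOC787803 (0.839) were nearest. For FAM200A the rows with a symbol were PQLC2 (0.817), SMKR1 (0.769), NOA1 (0.735), ADSSL1 (0.728) and CTGF (0.725), and of any identifier ENSBTAG00000051481 (0.962) and ENSBTAG00000007483 (0.874). The lists depended on the method: of the 5 symbols, 1 remained for FAM200B (BORCS7) and 2 for FAM200A with Spearman correlation, and 3 and 4 with library totals. These are descriptions over 28228 compared rows in libraries that share follicles.

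LOC104968939, a long non-coding RNA gene and the nearest gene before FAM200B in the RefSeq table, was higher in granulosa cells of the blastocyst group than in those of the cleavage group. It averaged 3.07 ± 1.03 CPM in the blastocyst group and 0.0455 ± 0.0910 CPM in the cleavage group (SD, n = 4 each), with 193 against 2 summed counts. The fitted log2 fold change was 5.99 (SE 1.21). The row passed the filter on low counts only through the blastocyst group, where it was high, so the difference is given without a test. Over all rows of this comparison 21.3% were called higher and 0.349% lower. Without B20 and D27 the log2 fold change of LOC104968939 was 6.02, and 0 of 23577 rows were called. The granulosa libraries of the blastocyst group also had more rows at 5 or more counts (26373 to 28629, against 18065 to 22039 in the cleavage group), and H1FOO stood at 5.80 to 22.3 CPM in them, against 0.302 to 6.74 CPM in the cleavage group, with LOC104968939 and H1FOO both highest in B20. Their part in the result was not tested. Without a stated strand setting, reads of overlapping genes cannot be told apart.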

How the data were processed

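RNA of 32 libraries was made into cDNA with the SMART-Seq HT kit and Nextera XT, per the labels' protocols. Per the submitters' processing notes, the tools included Trim Galore, cutadapt, STAR and featureCounts. Raw counts per gene were deposited by the authors in 4 tables. The tool versions, the genome build and the strand setting were not given in the sources used here. Deposited counts were tested with edgeR 4.0.16 (R 4.3.3): low rows removed with filterByExpr, TMM scaling, robust quasi-likelihood F-test, Benjamini-Hochberg adjustment over all rows tested and a threshold of 0.05. The SE is the log2 fold change divided by the square root of F. Levels are CPM scaled by TMM within each table, and spreads use log2(CPM + 1). Depth ranged between 7964591 and 23790073 counts per library. Intervals (95%, exact) cover counting error only. The labels tie no library to an animal, and the spread behind each p-value may therefore be technical.

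The members, the list of 43 transposase-derived symbols and the tests were chosen with earlier results of these data known. Differences that chose the members carry no p. Their comparisons with granulosa cells were planned with a test and are given without one, since granulosa levels entered the choice. Named genes were the members, the 5 rows with a symbol and the 2 of any identifier most like each, neighbours in the RefSeq table, and list genes past the threshold. Alternatives were DESeq2 1.42.0 (size factors, Wald test), library totals, no filter, pseudocounts of 0.25 and 4, the replicate block, the label letter, and leaving out each library. Leaving out granulosa libraries B20 and D27 together was added after seeing the data. Same-numbered matched biopsies and oocytes deviated together (correlations 0.186 to 0.305, mean 0.23). Those of different numbers had a mean of -0.0743 and reached 0.229. Same-labelled biopsies and granulosa cells correlated at -0.0306 to 0.151 (mean 0.0625). Those of different labels had a mean of -0.00886 and reached 0.179, above every same-labelled pair. The pairing of biopsies with granulosa cells therefore rests on the series text. The 8 polar bodies, a methylation table, and its 24 value columns, which carry only numbers, were not used.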

Additional observations from a re-analysis of the deposited data

Results flagged for a closer look

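In groups of 4 libraries, 3 values stood far from the rest of their group by Dixon's criterion, which by its construction also marks some groups by chance. FAM200A was at 0.0570 CPM in cleavage-group biopsy D10, which is 1 count against 0 in the other 3 biopsies. FAM200A was at 6.05 CPM in matched biopsy 16, with 0 counts in the other 3. FAM200B was at 10.6 CPM in blastocyst-group cumulus library 10, and the other 3 lay between 5.10 and 5.71 CPM.

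The fate difference of FAM200A in granulosa cells less that in biopsies was -8.72 on the log2 scale (SE 2.10). It is one of the values the gene was chosen on, so no test is given, and the biopsy side rests on B21 and D24.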

How the results depend on the processing

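FAM200B in biopsies against granulosa cells ranged between 1.23 and 2.0 (log2) without single libraries, and was 1.56 without granulosa libraries B20 and D27. In cumulus against granulosa cells it ranged between -1.12 and -0.71 without single libraries, and was -0.94 with no filter. With the replicate block the FAM200A fate difference of granulosa cells less biopsies was -7.24, and it ranged between -10.0 and -7.76 without single libraries. FAM200A in whole oocytes against cumulus cells ranged between -0.18 and 0.68. Rows called between fates in cumulus cells numbered 0 to 7 without single libraries, 183 with no filter and 159 with DESeq2. Between matched biopsies and oocytes they numbered 13 with no filter and 190 with DESeq2, and between whole oocytes and cumulus cells 26592 with no filter. With library totals the spread of FAM200B lay at percentile 58.1 in blastocyst-group biopsies and 13.5 in blastocyst-group granulosa cells. The causes were not tested. Over all alternatives, 351 other values were marked as unchanged. For tested comparisons this meant the same side of the threshold, and a turned sign was allowed where neither fit passed. FAM200B in matched biopsies over oocytes turned in this way without oocyte 6 (0.23). A missing adjusted p also counted as unchanged where the reported fit had not passed. Untested values, counts of rows, ratios and percentiles had to stay within their spread or a set margin. No paired analysis was possible for cumulus cells because their columns carry no oocyte label. In the block fits, FAM200B was 1.74 in biopsies against granulosa cells and -0.17 between matched biopsies and oocytes. With 4 libraries a group and FAM200A near 0 counts in most biopsies, small differences were not detectable at this depth.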
